A study of Mus musculus with 96 samples.

Results

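The genes described here are the 4 kinases that phosphorylate the alpha subunit of the translation factor eIF2, namely Eif2ak1 (HRI), Eif2ak2 (PKR), Eif2ak3 (PERK) and Eif2ak4 (GCN2), together with Gcn1l1 (GCN1) and Oma1. They were taken by gene name from a table of estimated read counts and make up 6 of its 54146 mouse genes. The table covers 96 libraries of C2C12, a mouse myoblast line, in 35 conditions, 26 of them with 3 samples and 9 with 2. Proliferating myoblasts carried a transgene induced with doxycycline at 300 ng/ml, which was luciferase as the control (Luc), LbNOX (a bacterial enzyme that oxidizes NADH), mitoLbNOX (the same enzyme sent to the mitochondria) or NDI1 (a yeast enzyme that oxidizes NADH in place of complex I). For 10 hr they received the vehicle DMSO or an inhibitor, which was piericidin (complex I), antimycin (complex III) or oligomycin (ATP synthase). Luc and LbNOX cells received all of these, mitoLbNOX cells no oligomycin, and NDI1 cells only DMSO or piericidin. Luc and LbNOX myoblasts also received DMSO or chloramphenicol, which blocks mitochondrial protein synthesis, for 48 hr. Cells without a transgene were treated for 10 hr on day 1 after the switch to low serum, with DMSO, piericidin or oligomycin, or as myotubes on day 4, where antimycin, BAM15 (an uncoupler of respiration) and hypoxia were added to the treatments, some of them combined with oligomycin. Low oxygen began the night before and continued through the treatment, so it lasted longer than the 10 hr. A further set of myotubes was transduced with adenovirus carrying GFP or LbNOX and received DMSO, piericidin or oligomycin. Replicates were separate samples of 1 line, so p-values measure the spread between these samples, which may be technical.

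Phosphorylation of eIF2 alpha lowers general protein synthesis while it favours translation of Atf4, and so starts the integrated stress response (ISR). HRI is known for sensing haem shortage and for relaying mitochondrial stress, PKR for binding double-stranded RNA, PERK for unfolded protein in the endoplasmic reticulum (ER) and GCN2 for uncharged tRNA and stalled ribosomes. GCN1 binds ribosomes and is required for GCN2 activity. OMA1 is a protease of the inner mitochondrial membrane that cleaves OPA1 and DELE1, and cleaved DELE1 activates HRI. The values below are mRNA levels and hold no measure of kinase or protease activity.

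In GRCm38, Eif2ak1 lies on chromosome 5 from 143817788 to 143904251 and Gcn1l1 on the same chromosome from 115565254 to 115622654, both on the plus strand. Eif2ak2 lies on chromosome 17 from 78852564 to 78882573 on the minus strand. Eif2ak3 lies on chromosome 6 from 70844515 to 70905245, Eif2ak4 on chromosome 2 from 118388618 to 118475234 and Oma1 on chromosome 4 from 103313812 to 103371868, all on the plus strand. The longest coding transcript has 15, 16, 17 and 40 exons in Eif2ak1 to Eif2ak4, 58 in Gcn1l1 and 9 in Oma1. Eif2ak1 shares 487 exonic bases with Aimp2, a tRNA synthetase scaffold gene on the opposite strand. Reads from those bases cannot be told apart by strand, since the libraries were unstranded.

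The 250 bases before the RefSeq transcription start (GRCm38.p6) are shown for Eif2ak1, Eif2ak2, Eif2ak4 and Gcn1l1, the members called against DMSO with piericidin in Luc myoblasts, and for Eif2ak3, which was not called there, for its CCAAT matches. Capitals mark matches on either strand to CCAAT, TGATGNAA (the ATF4 and C/EBP element), TGACGTCA (CRE), the core of the interferon response element (GAAA, 2 bases of any kind, GAAA) or the NRF1 site (GCGC, 1 base of any kind, TGCGC). These motifs were chosen after the sequences had been seen.
Eif2ak1, chr5:143817542-143817791, plus strand: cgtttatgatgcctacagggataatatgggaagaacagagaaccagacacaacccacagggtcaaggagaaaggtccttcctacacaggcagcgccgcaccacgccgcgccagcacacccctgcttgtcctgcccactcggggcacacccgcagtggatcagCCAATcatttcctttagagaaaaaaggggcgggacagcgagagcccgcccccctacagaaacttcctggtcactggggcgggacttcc
Eif2ak2, chr17:78882573-78882822, minus strand: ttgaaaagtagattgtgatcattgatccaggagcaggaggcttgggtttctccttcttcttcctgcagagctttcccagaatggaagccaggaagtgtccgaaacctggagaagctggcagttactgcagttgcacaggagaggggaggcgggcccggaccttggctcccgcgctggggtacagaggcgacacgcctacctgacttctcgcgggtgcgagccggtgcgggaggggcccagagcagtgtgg
Eif2ak3, chr6:70844265-70844514, plus strand: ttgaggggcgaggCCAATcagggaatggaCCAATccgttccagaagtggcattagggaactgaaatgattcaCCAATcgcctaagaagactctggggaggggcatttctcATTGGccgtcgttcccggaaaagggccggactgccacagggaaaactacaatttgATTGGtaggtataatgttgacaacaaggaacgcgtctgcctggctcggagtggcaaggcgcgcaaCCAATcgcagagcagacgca
Eif2ak4, chr2:118388367-118388616, plus strand: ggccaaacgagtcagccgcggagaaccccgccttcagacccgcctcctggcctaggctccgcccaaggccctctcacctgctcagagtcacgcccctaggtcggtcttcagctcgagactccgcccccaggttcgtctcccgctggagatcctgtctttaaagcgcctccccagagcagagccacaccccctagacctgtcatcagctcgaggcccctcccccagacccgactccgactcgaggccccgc
Gcn1l1, chr5:115565013-115565262, plus strand: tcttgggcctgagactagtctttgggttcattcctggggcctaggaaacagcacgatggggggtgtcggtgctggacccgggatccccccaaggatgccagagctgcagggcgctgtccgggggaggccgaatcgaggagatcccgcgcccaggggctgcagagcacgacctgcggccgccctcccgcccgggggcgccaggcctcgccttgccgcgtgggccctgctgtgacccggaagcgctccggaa

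Eif2ak3 held 6 CCAAT matches in the window of 300 bases around its start (250 before and 50 after), a number reached by 0.0791% of the 32851 windows in the RefSeq table, whereas at least 1 such match was found in 37.4%. Eif2ak1 held 1 CCAAT match, 88 bases before the start. Eif2ak2 held GAAAACGAAA beginning 19 bases after its start (the interferon response core was present in 3.44% of windows), and Oma1 held GCGCCTGCGC beginning 23 bases before it (the NRF1 site was present in 4.6%). The windows of Eif2ak4 and Gcn1l1 held none of these letters, and TGATGNAA (3.97% of windows) and TGACGTCA (1.79%) were found at no member. A match describes the sequence and shows no bound site.

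Per length of transcript, Eif2ak1 was the most abundant of the 4 kinases in 35 of 35 conditions. Levels are given as CPM, counts scaled to the library total with trimmed-mean (TMM) factors over all samples, and between genes as CPM per kb of the longest coding transcript. In Luc myoblasts with DMSO, Eif2ak1 reached 11.04 ± 0.666 CPM per kb (SD, n = 3), Eif2ak4 4.63 ± 0.334, Eif2ak2 4.08 ± 0.305 and Eif2ak3 0.906 ± 0.0938. Eif2ak1 made up 51.2% to 72.3% of the summed kinase level over the 35 conditions, Eif2ak4 10.2% to 27.9%, Eif2ak2 8.26% to 22.3% and Eif2ak3 2.68% to 12.5%. Gcn1l1 stood at 9.11 ± 0.499 CPM per kb in the same cells and Oma1 at 5.73 ± 0.255.

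**Figure D1:**
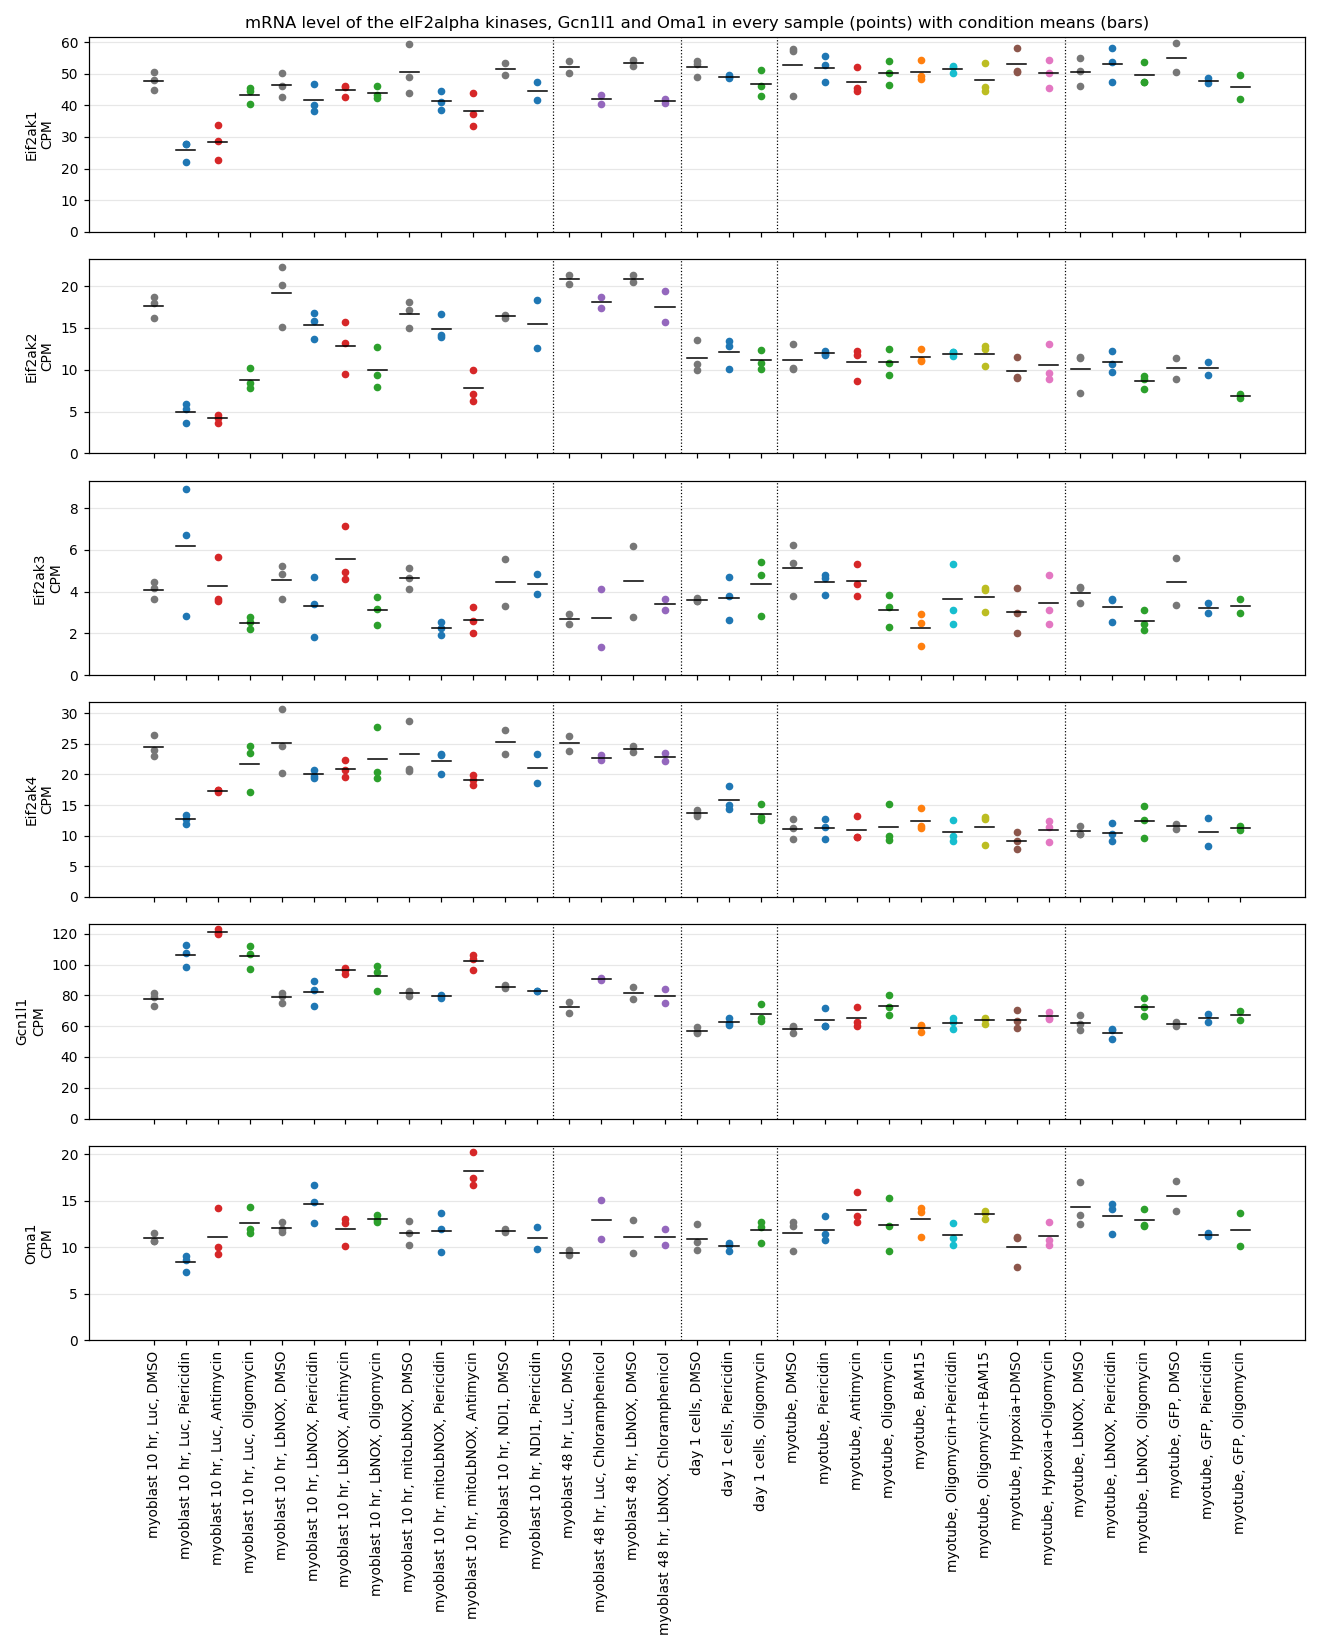
CPM of each member (vertical axis, starting at 0) in every sample, with 1 column for each of the 35 conditions, points for samples coloured by treatment, horizontal bars for condition means and dotted lines between experiments. Eif2ak1 and Eif2ak2 have their lowest means in Luc myoblasts with piericidin (25.9 CPM) and antimycin (4.18 CPM), and Gcn1l1 has its highest with antimycin (121 CPM).

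The condition means spread most for Eif2ak2, from 20.9 ± 0.604 CPM (SD, n = 2) in LbNOX myoblasts kept in DMSO for 48 hr down to 4.18 ± 0.476 (n = 3) in Luc myoblasts with antimycin, a ratio of 4.999. Ratios of the highest to the lowest mean were 2.77 for Eif2ak4, 2.75 for Eif2ak3, 2.17 for Gcn1l1, 2.17 for Oma1 and 2.13 for Eif2ak1. Eif2ak3 was read least, with 13 to 81 counts per sample. When the 35 means of a gene were put in order, most of the 34 neighbouring pairs differed by less than the larger SD of the pair: 34 pairs for Eif2ak3, 33 for Eif2ak1, 33 for Eif2ak2, 32 for Oma1, 31 for Eif2ak4 and 30 for Gcn1l1. For Eif2ak1 the step lay between mitoLbNOX myoblasts with antimycin (38.2 ± 5.27 CPM) and Luc myoblasts with antimycin (28.3 ± 5.55 CPM), with piericidin in Luc cells lowest (25.9 ± 3.25 CPM). For Oma1 a step lay below mitoLbNOX myoblasts with antimycin, the highest condition at 18.2 ± 1.87 CPM.

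In Luc myoblasts, piericidin and antimycin went with less mRNA of 3 of the 4 kinases and more of Gcn1l1, while with oligomycin Eif2ak2 was the kinase that fell and Gcn1l1 rose as well. These comparisons ask how blocks at different points of the respiratory chain act on gene expression. A change was called at an adjusted p under 0.05 in edgeR's quasi-likelihood test (Benjamini-Hochberg), and 61.7% of the 11978 genes tested passed with piericidin, 63.2% with antimycin and 50.8% with oligomycin. Among the members, 4 of 6 passed with piericidin, 4 of 6 with antimycin and 2 of 6 with oligomycin, shares close to or below those of all genes. The 3 comparisons share the same DMSO samples.

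Eif2ak2 fell furthest. Its level was 18.7, 16.1 and 17.9 CPM in the 3 DMSO samples, against 5.92, 3.64 and 5.29 with piericidin, 4.65, 4.20 and 3.70 with antimycin and 8.39, 10.2 and 7.85 with oligomycin. Every inhibited sample lay below every DMSO sample. The log2 fold change was -1.79 ± 0.21 (SE) with piericidin (edgeR adjusted p = 1.04e-08), -2.02 ± 0.21 on antimycin (adjusted p = 1.38e-09) and -0.98 ± 0.19 on oligomycin (adjusted p = 8.01e-05). Set against oligomycin directly, Eif2ak2 was lower with piericidin (-0.81 ± 0.22 on the log2 scale) and with antimycin (-1.04 ± 0.22), while antimycin and piericidin differed by -0.23 ± 0.24 (edgeR adjusted p = 0.494). The piericidin difference from oligomycin was lost without the second replicate (-0.53, adjusted p = 0.0717).

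Eif2ak1 was at 44.7, 48.1 and 50.5 CPM with DMSO, at 22.2, 27.9 and 27.7 with piericidin, at 28.6, 33.7 and 22.6 with antimycin and at 45.4, 44.5 and 40.3 with oligomycin. The piericidin and antimycin samples lay below all DMSO samples, whereas the oligomycin samples overlapped them. The log2 fold changes were -0.85 ± 0.12 with piericidin (edgeR adjusted p = 4.64e-07), -0.71 ± 0.12 on antimycin (adjusted p = 6.59e-06) and -0.13 ± 0.12 on oligomycin (adjusted p = 0.386). Aimp2, which shares exonic bases with Eif2ak1, was higher in all 3 comparisons, with log2 changes of 1.00 ± 0.07 on piericidin, 0.69 ± 0.07 on antimycin and 0.34 ± 0.07 on oligomycin, and its part in the Eif2ak1 values was not tested.

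Eif2ak4 was at 24.0, 23.1 and 26.5 CPM with DMSO, at 11.9, 13.4 and 12.8 with piericidin and at 17.4, 17.5 and 17.1 with antimycin, again without overlap. With oligomycin it was at 23.5, 24.7 and 17.2, which overlapped DMSO (-0.15 ± 0.14 on the log2 scale). The change was -0.91 ± 0.15 on the log2 scale with piericidin (edgeR adjusted p = 5.36e-06) and -0.45 ± 0.15 with antimycin (adjusted p = 0.00799). Antimycin samples were above piericidin samples by 0.46 ± 0.16 (edgeR adjusted p = 0.0210), a difference lost without any 1 of the 3 replicates (lowest value 0.41). All Luc DMSO samples were in outer wells of a plate that held the samples of all the cells, which is not the culture plate. This holds for every comparison against them. With well position as a covariate the antimycin change of Eif2ak4 was -0.37 and did not pass (edgeR adjusted p = 0.0553).

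Eif2ak3 was at 3.63, 4.46 and 4.18 CPM with DMSO, at 6.71, 8.94 and 2.86 with piericidin, at 3.56, 3.64 and 5.66 with antimycin and at 2.53, 2.78 and 2.19 with oligomycin, and passed against DMSO with none of them in edgeR or DESeq2. The piericidin samples lay on both sides of DMSO and gave 0.62 ± 0.31 on the log2 scale (edgeR adjusted p = 0.0839). Without the third replicate of each group, which held the low piericidin sample, the value was 0.95 and passed (adjusted p = 0.0269). The oligomycin samples all lay below DMSO without passing (-0.69 ± 0.33, adjusted p = 0.0807), but passed when only the groups compared entered the fit (adjusted p = 0.0340). Eif2ak3 was higher with piericidin than with oligomycin by 1.31 ± 0.33 (adjusted p = 0.00175), which was lost without the first replicate or the second (1.23 and 1.01).

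Gcn1l1 rose with all 3 inhibitors. DMSO samples were at 79.0, 73.3 and 81.6 CPM, piericidin samples at 107, 113 and 98.7, antimycin samples at 123, 121 and 120.1 and oligomycin samples at 107, 112 and 97.4. All 9 inhibited samples were above the DMSO samples. The log2 fold changes were 0.48 ± 0.06 (edgeR adjusted p = 1.05e-07), 0.68 ± 0.06 (adjusted p = 1.00e-10) and 0.45 ± 0.06 (adjusted p = 5.45e-07). Antimycin samples were above piericidin samples by 0.20 ± 0.06 and above oligomycin samples by 0.23 ± 0.06. Both calls were lost without the first replicate (adjusted p = 0.167 and 0.109) and without the third (adjusted p = 0.175 and 0.0920), and the first of them also with no filter on low counts (adjusted p = 0.124). Piericidin and oligomycin differed by 0.03 ± 0.06 (edgeR adjusted p = 0.705).

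Oma1 was at 11.5, 10.7 and 10.7 CPM with DMSO and at 9.10, 7.40 and 8.67 with piericidin. These samples did not overlap, but the change of -0.35 ± 0.15 on the log2 scale missed the threshold (edgeR adjusted p = 0.0502), and passed with the replicate number as a block (adjusted p = 0.0479) or without the third replicate (-0.42, adjusted p = 0.0492). Antimycin samples (9.30, 10.0 and 14.2 CPM) gave 0.07 ± 0.15 and oligomycin samples (14.3, 11.99 and 11.6 CPM) 0.22 ± 0.15. Oma1 was lower with piericidin than with oligomycin by a log2 difference of -0.57 ± 0.15 (edgeR adjusted p = 0.00380), which was -0.55 and did not pass without the first replicate (adjusted p = 0.0624). Its difference between antimycin and piericidin (0.42 ± 0.16) was lost without the second replicate (0.39) or the third (0.23), with DESeq2 (adjusted p = 0.0715), with no filter and when only the groups compared were fitted. Between pairs of inhibitors in Luc myoblasts, 3 of 6 members differed for antimycin against piericidin (37.2% of genes did), 5 of 6 for piericidin against oligomycin (39.2%) and 4 of 6 for antimycin against oligomycin (50%). Among the latter, Eif2ak3 (0.80 ± 0.33) was lost in 8 alternatives, among them DESeq2 (adjusted p = 0.0551) and any 1 replicate left out (values 0.45 to 0.95). Without the third replicate, further members passed, namely Eif2ak3 for antimycin against piericidin (-1.12, adjusted p = 0.0247) and Eif2ak4 (-0.45, adjusted p = 0.0411) and Oma1 (-0.44, adjusted p = 0.0482) for antimycin against oligomycin.

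Cell markers moved in the same samples. The 6 markers of proliferating myoblasts were Pax7, Myf5, Myod1, Mki67, Top2a and Ccnb1. Their summed level was 930.0 to 963 CPM with DMSO, 799.6 to 872 with piericidin, 729.7 to 771 with antimycin and 743 to 760.4 with oligomycin. Of these markers 4 fell and 2 rose with piericidin, 4 and 2 with antimycin and 4 and 1 with oligomycin, where 30.8%, 31.1% and 26.3% of all genes fell and 30.9%, 32.1% and 24.5% rose. Myotube markers (6 genes) summed to 17.8 to 23.2 CPM with DMSO, 27.7 to 33.8 with piericidin, 85.1 to 93.9 with antimycin and 22.8 to 32.3 with oligomycin, with Myh3 at 0 in the last 2 groups. Fibroblast markers (4 genes) summed to 3.07 to 3.91 CPM with DMSO, 1.16 to 1.55 with piericidin, 0.924 to 2.87 with antimycin and 1.27 to 2.43 with oligomycin, with Tcf21 at 0 in all 4 groups and Dpt at 0 with oligomycin. Adipocyte markers (4 genes) summed to 8.83 to 9.49 CPM with DMSO, 3.87 to 6.73 with piericidin, 19.4 to 20.9 with antimycin and 4.51 to 5.39 with oligomycin. This sum was higher with antimycin and lower with the other inhibitors, with Adipoq and Cidec at 0. In 10 hr myoblasts the filter on low counts passed only 1 of 4 adipocyte markers, 1 of 4 fibroblast markers and 2 of 6 myotube markers. These sums therefore rest on few genes. The part of these shifts in the kinase values was not tested, and in bulk RNA fewer cells of a type and less RNA per cell cannot be told apart. Total counts in these 12 libraries ran from 9282791 to 13898633.

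**Figure D2:**
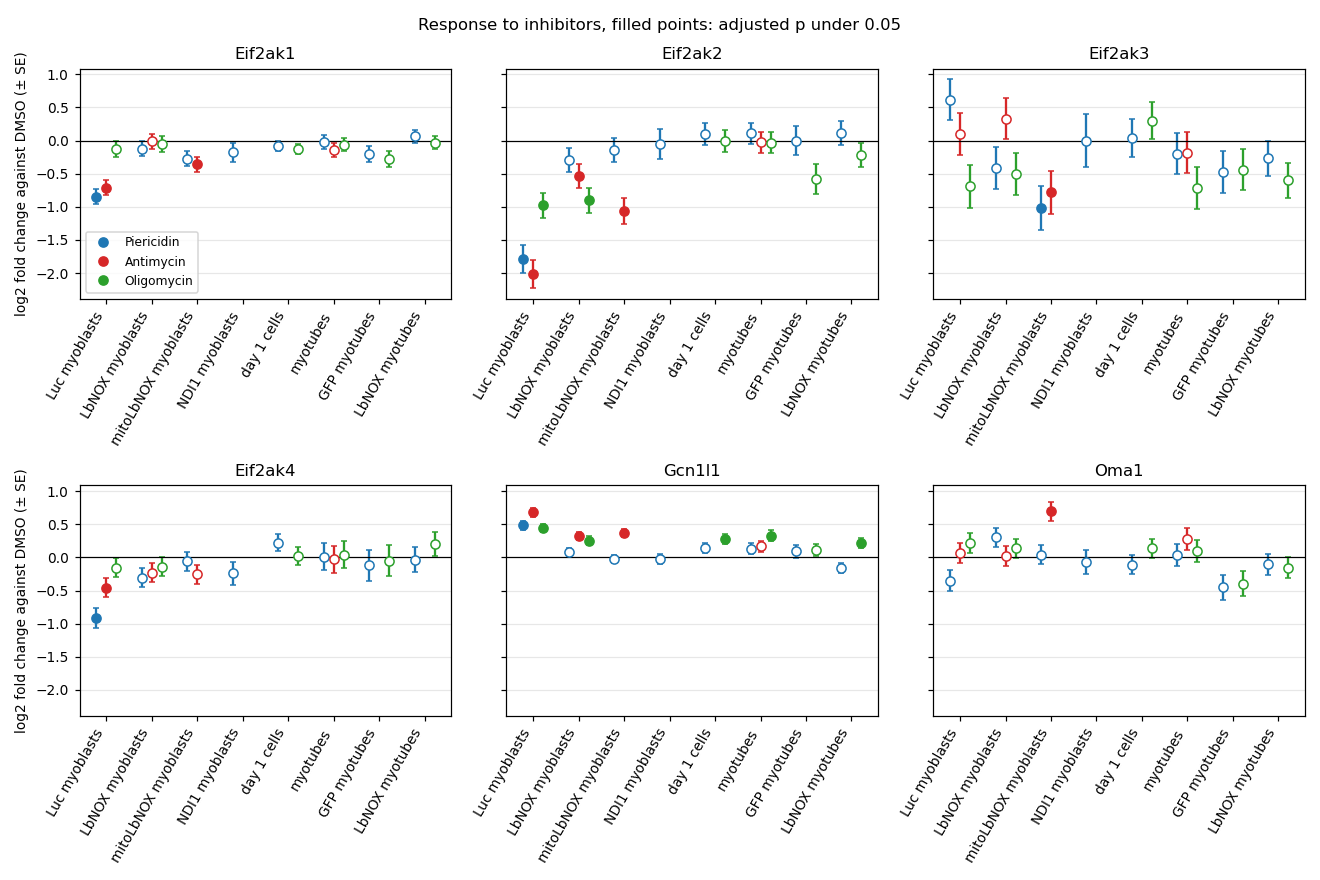
log2 fold change against DMSO (vertical axis, ± SE of the edgeR fit) of each member by cell (horizontal axis) and inhibitor (colour), with filled points where the adjusted p was under 0.05. Eif2ak2 reaches -2.02 in Luc myoblasts with antimycin, while its points in untransduced myotubes and day 1 cells lie between -0.03 and 0.11.

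Without an inhibitor, no member differed between a transgene and Luc in edgeR. Against Luc myoblasts with DMSO, 0 of 6 members passed in LbNOX cells (2.66% of genes did), 0 of 6 in mitoLbNOX cells (1.74%) and 0 of 6 in NDI1 cells (4.58%), with 0, 0 and 0 members at an unadjusted p under 0.05. The log2 differences lay between -0.11 and 0.18. In 26 of the 56 comparisons edgeR called no member, and DESeq2 called 0 members in them.

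In LbNOX myoblasts piericidin called 0 of 6 members (8.87% of genes, and 2 members at an unadjusted p under 0.05). Eif2ak2 was at 22.3, 20.1 and 15.1 CPM with DMSO and at 16.7, 13.6 and 15.8 with piericidin, so the groups overlapped, and the log2 change was -0.29 ± 0.18 (edgeR adjusted p = 0.362). The difference of this response from that in Luc cells was 1.50 ± 0.28 (adjusted p = 4.78e-05). Piericidin responses also differed between LbNOX and Luc cells for Eif2ak1 (0.72 ± 0.17), Oma1 (0.65 ± 0.21), Eif2ak4 (0.61 ± 0.21) and Gcn1l1 (-0.40 ± 0.09), so that 5 of 6 members passed (44.3% of genes did). Of these, Gcn1l1 was at -0.20 and lost without the second replicate (adjusted p = 0.116), Eif2ak4 was lost without the third and Oma1 without the first or the second or with no filter (adjusted p = 0.0619).

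Antimycin in LbNOX myoblasts called 2 of 6 members (46.1% of genes). Eif2ak2 went from 22.3, 20.1 and 15.1 CPM to 15.7, 9.53 and 13.3, with overlap between the groups (-0.54 ± 0.19 on the log2 scale, edgeR adjusted p = 0.0183). That call was lost without the first replicate (adjusted p = 0.0651) or the second (-0.35, adjusted p = 0.149). Gcn1l1 rose from 79.5, 81.6 and 75.4 CPM to 94.0, 98.0 and 96.6, a log2 change of 0.32 ± 0.06 (edgeR adjusted p = 9.26e-05). The antimycin response differed from that in Luc cells for 3 of 6 members (51.5% of genes), with Eif2ak2 at 1.48 ± 0.28, Eif2ak1 at 0.70 ± 0.17 and Gcn1l1 at -0.36 ± 0.09. The Gcn1l1 difference was -0.34 and did not pass without the first replicate (adjusted p = 0.0674).

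Oligomycin in LbNOX myoblasts also called 2 of 6 members (35.2% of genes). Eif2ak2 was at 9.32, 7.99 and 12.7 CPM, all below DMSO (-0.90 ± 0.19 on the log2 scale, edgeR adjusted p = 0.000348). Gcn1l1 was at 98.8, 83.1 and 95.1 CPM, all above DMSO (0.26 ± 0.06, adjusted p = 0.00183), a call lost without the first replicate or the third (values 0.21 and 0.21) and with no filter (adjusted p = 0.0561). Oligomycin responses differed between LbNOX and Luc cells for 0 of 6 members in edgeR (7.98% of genes, and 1 member at an unadjusted p under 0.05), the difference for Eif2ak2 being 0.08 ± 0.27 (adjusted p = 0.922).

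In mitoLbNOX myoblasts, piericidin called 1 of 6 members (11.2% of genes). Eif2ak3 was at 4.64, 4.12 and 5.16 CPM with DMSO and at 2.26, 2.57 and 1.91 with piericidin, without overlap, at 22 to 35 counts per piericidin sample. Its log2 change was -1.02 ± 0.33 (edgeR adjusted p = 0.0395) and did not pass when any 1 of the 3 replicates was left out (values -1.21 to -0.83). The piericidin response differed from that of Luc cells for 5 of 6 members (42.9% of genes), with Eif2ak2 at 1.65 ± 0.28, Eif2ak3 at -1.64 ± 0.45, Eif2ak4 at 0.86 ± 0.21, Eif2ak1 at 0.57 ± 0.17 and Gcn1l1 at -0.50 ± 0.09. Without the first replicate those of Eif2ak3 and Eif2ak1 were lost (-1.48 and 0.55). Without the third, Eif2ak1 passed as lower with piericidin (-0.42, adjusted p = 0.0405).

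Antimycin in mitoLbNOX myoblasts called 5 of 6 members (47.7% of genes) and gave the highest Oma1 mean of the 35 conditions. Oma1 was at 12.9, 11.5 and 10.2 CPM with DMSO and at 20.3, 16.7 and 17.5 with antimycin, a rise of 0.70 ± 0.15 on the log2 scale (edgeR adjusted p = 0.000196). Eif2ak2 was at 14.98, 18.1 and 17.1 CPM with DMSO and at 7.08, 9.98 and 6.31 with antimycin (-1.06 ± 0.20, adjusted p = 3.86e-05). Gcn1l1 rose by 0.37 ± 0.06 (adjusted p = 1.47e-05). The other calls were Eif2ak1 at -0.36 ± 0.12, lost without the first replicate or the second (at -0.24), and Eif2ak3 at -0.78 ± 0.33, lost without any 1 of the 3 and with the replicate number as a block (adjusted p = 0.0537) or no filter (adjusted p = 0.0769). The antimycin response differed from that of Luc cells for 3 of 6 members (31.7% of genes), with Eif2ak2 at 0.96 ± 0.29, Oma1 at 0.63 ± 0.21 and Gcn1l1 at -0.31 ± 0.09, and all 3 were lost without the first replicate (Oma1 then at 0.48, Eif2ak2 at 0.98 and Gcn1l1 at -0.36). Those of Oma1 and Gcn1l1 were also lost without the second replicate (adjusted p = 0.0883 and 0.0914) and with no filter (0.101 and 0.0694). Without the second, that of Eif2ak1 passed (0.64, adjusted p = 0.0392).

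In NDI1 myoblasts, with 2 samples per group, piericidin called 0 of 6 members in edgeR (0.00835% of genes, and 0 members at an unadjusted p under 0.05). Eif2ak2 was at 16.2 and 16.6 CPM with DMSO and at 18.4 and 12.6 with piericidin, Eif2ak1 at 53.3 and 49.7 against 47.5 and 41.8, and Gcn1l1 at 84.6 and 86.8 against 83.1 and 82.6. Piericidin responses differed from those of Luc cells for 4 of 6 members (42.7% of genes), with Eif2ak2 at 1.74 ± 0.31, Eif2ak1 at 0.67 ± 0.18, Eif2ak4 at 0.67 ± 0.23 and Gcn1l1 at -0.50 ± 0.10. The last 3 were lost without the first replicate (adjusted p = 0.0748, 0.127 and 0.0560). The Luc piericidin and DMSO samples enter all these differences between cell lines.

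After 48 hr with chloramphenicol, Gcn1l1 was the called member in Luc myoblasts (1 of 6, and 8.45% of 11702 genes). It was at 68.9 and 75.7 CPM with DMSO and at 89.8 and 91.0 with chloramphenicol, a log2 change of 0.37 ± 0.08 (edgeR adjusted p = 0.0262, or 0.0503 with the replicate number as a block). Eif2ak1 was at 54.1 and 50.3 against 43.4 and 40.5 CPM, which did not overlap and did not pass (-0.27 ± 0.09). In LbNOX myoblasts 0 of 6 members passed (0.931% of genes, and 1 member at an unadjusted p under 0.05), with Gcn1l1 at -0.01 ± 0.08. LbNOX and Luc cells in DMSO differed in 0 of 6 members (0.231%, unadjusted 0), and their chloramphenicol responses in 0 of 6 (0.530%, unadjusted 1), with Gcn1l1 at -0.38 ± 0.12 (edgeR adjusted p = 0.299).

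In myotubes Gcn1l1 rose with oligomycin, and no kinase passed with any of the 3 inhibitors in edgeR. Piericidin called 0 of 6 members (8.99% of 12491 genes, and 0 members at an unadjusted p under 0.05), antimycin 0 of 6 (12.9%, unadjusted 0) and oligomycin 1 of 6 (33.3%). Gcn1l1 was at 55.9, 59.9 and 59.7 CPM with DMSO and at 80.5, 72.5 and 67.3 with oligomycin, without overlap, for a log2 change of 0.33 ± 0.08 (edgeR adjusted p = 0.00297). It was 0.22 without the first replicate (adjusted p = 0.0537). Eif2ak2 was at 10.2, 13.04 and 10.1 CPM with DMSO, at 11.8, 11.9 and 12.3 with piericidin, at 8.70, 11.8 and 12.3 with antimycin and at 10.8, 12.4 and 9.38 with oligomycin. All these groups overlapped DMSO, and the log2 changes were 0.11 ± 0.16, -0.03 ± 0.16 and -0.03 ± 0.16. Eif2ak3 passed with oligomycin when the third replicate was left out (-1.06, against -0.71 ± 0.32 with all samples).

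BAM15 called 1 of 6 members in myotubes (25.4% of genes). Eif2ak3 was at 5.36, 6.25 and 3.79 CPM with DMSO and at 2.50, 2.94 and 1.40 with BAM15, from 14 to 36 counts, a log2 change of -1.15 ± 0.33 (edgeR adjusted p = 0.0120). The call was lost without any 1 of the 3 replicates (values -1.22 to -1.08), and with well position as a covariate the value was -0.87 (adjusted p = 0.0751). Oligomycin with BAM15 called 0 of 6 against DMSO (23.2%, unadjusted 0) and 0 of 6 against oligomycin alone (26.1%, unadjusted 1). The oligomycin response of Eif2ak3 was higher by 1.41 ± 0.46 in the presence of BAM15 (1 of 6, and 18.6% of genes, edgeR adjusted p = 0.0349), a call lost with well position (1.00) and without the first replicate or the second.

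Piericidin given with oligomycin called 0 of 6 against DMSO (12.8% of genes, unadjusted 0) and 1 of 6 against oligomycin alone (20.9%). Gcn1l1 was at 62.7, 58.3 and 65.2 CPM with both inhibitors, all below the oligomycin samples (-0.25 ± 0.08 on the log2 scale, edgeR adjusted p = 0.0317). Its oligomycin response differed by -0.38 ± 0.12 in the presence of piericidin (1 of 6, and 14.6% of genes, adjusted p = 0.0282). Both calls were lost without the first replicate (-0.19 and -0.19), without the second, with well position and with no filter (adjusted p = 0.0678 and 0.0643), and the first of them also when only the groups compared were fitted (adjusted p = 0.0653). Hypoxia called 0 of 6 members against DMSO (22.1%, unadjusted 1), 0 of 6 for oligomycin added under hypoxia (4.26%, unadjusted 0), 0 of 6 for hypoxia added to oligomycin (33.3%, unadjusted 0) and 0 of 6 for the change in the oligomycin response (17.4%, unadjusted 1). Gcn1l1 lay between 58.7 and 70.4 CPM in the 6 hypoxic samples.

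In transduced myotubes, GFP cells had 0 of 6 members called with piericidin (3.08% of 12395 genes, and 1 member at an unadjusted p under 0.05) and 0 of 6 with oligomycin (25.8%, unadjusted 2). LbNOX cells had 0 of 6 with piericidin (6.77%, unadjusted 0) and 1 of 6 with oligomycin (31.8%), which was Gcn1l1 at 67.1, 57.7 and 61.5 CPM in DMSO and 78.5, 66.7 and 72.5 in oligomycin, with overlap (0.22 ± 0.08 on the log2 scale, edgeR adjusted p = 0.0340). That call was lost without any 1 of the replicates (values 0.22 to 0.23) with no filter (adjusted p = 0.0590) and with DESeq2 (adjusted p = 0.0508). LbNOX and GFP myotubes with DMSO differed in 0 of 6 members (0.00807%, unadjusted 0), and their responses to piericidin and to oligomycin in 0 of 6 each (0% and 0% of genes, unadjusted 0 and 0 members). Eif2ak2 in GFP myotubes was at 11.4 and 8.94 CPM with DMSO and at 7.08 and 6.64 with oligomycin, which did not overlap and did not pass (-0.58 ± 0.23, edgeR adjusted p = 0.0786).

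In day 1 cells, Gcn1l1 was again the called member with oligomycin (1 of 6, and 20.7% of 11827 genes), and piericidin called 0 of 6 (2.75%, unadjusted 0). Gcn1l1 was at 59.6, 55.3 and 56.0 CPM with DMSO, at 74.2, 65.4 and 63.5 with oligomycin and at 62.2, 65.1 and 60.8 with piericidin. Both inhibited groups lay above DMSO, with log2 changes of 0.28 ± 0.07 for oligomycin (edgeR adjusted p = 0.0193) and 0.14 ± 0.07 for piericidin (adjusted p = 0.370), and the oligomycin call was lost without any 1 of the 3 replicates (values 0.24 to 0.30).

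Between cell states with DMSO, Eif2ak2, Eif2ak4 and Gcn1l1 were lower after the switch to low serum, while Eif2ak1, Eif2ak3 and Oma1 did not pass. Against Luc myoblasts, 3 of 6 members passed in day 1 cells (63.6% of 12765 genes) and 3 of 6 in myotubes (69.4%). Between myotubes and day 1 cells, 0 of 6 passed in edgeR (35.6%, and 0 members at an unadjusted p under 0.05).

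Eif2ak4 fell most with state, from 24.0, 23.1 and 26.5 CPM in Luc myoblasts to 14.2, 13.5 and 13.2 in day 1 cells and 9.38, 12.7 and 11.3 in myotubes. The log2 differences from myoblasts were -0.84 ± 0.15 on day 1 (edgeR adjusted p = 2.62e-05) and -1.10 ± 0.16 in myotubes (adjusted p = 5.58e-07). Eif2ak2 was at 10.0, 13.5 and 10.7 CPM in day 1 cells, and differed from myoblasts by -0.62 ± 0.16 there and by -0.62 ± 0.16 in myotubes. Without the third replicate the day 1 value was -0.51 and did not pass (adjusted p = 0.0634). Gcn1l1 differed by -0.45 ± 0.08 on day 1 and by -0.37 ± 0.08 in myotubes. Eif2ak1 was at 49.1, 54.1 and 53.0 CPM in day 1 cells and 57.3, 57.7 and 42.9 in myotubes (0.18 ± 0.11 against myoblasts), and passed as higher in myotubes with well position as a covariate (0.34) or without the third replicate (0.35).

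Luc myoblasts differ from the low serum cells in serum, doxycycline and the transgene as well as in state, and these cannot be told apart. With DMSO, all Luc myoblast and day 1 samples were in outer wells and all myotube samples in inner wells. The summed level of the 6 myotube markers went from 17.8 to 23.2 CPM in Luc myoblasts to 10352 to 10919 in day 1 cells and 10392 to 10734 in myotubes. The sum of the 6 markers of proliferating myoblasts was 357 to 378 CPM in day 1 cells and 249.3 to 257 in myotubes. In myotubes 3 of them were lower and 2 higher (33.7% of all genes were lower and 35.7% higher). Fibroblast markers summed to 11.2 to 12.9 CPM in myotubes and adipocyte markers to 1.90 to 2.47 CPM, with Cidec at 0. Their part in the member differences was not tested.

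The inhibitor responses differed between states. Piericidin responses in myotubes differed from those in Luc myoblasts for 4 of 6 members (46.5% of genes), namely Eif2ak2 by 1.95 ± 0.24, Eif2ak4 by 0.97 ± 0.23, Eif2ak1 by 0.87 ± 0.16 and Gcn1l1 by -0.30 ± 0.11. In day 1 cells the same genes differed (4 of 6, and 46.6% of genes), with Eif2ak2 at 1.94 ± 0.24, Eif2ak4 at 1.18 ± 0.22, Eif2ak1 at 0.82 ± 0.16 and Gcn1l1 at -0.29 ± 0.11. Both Gcn1l1 differences were lost without the second replicate (-0.22 in myotubes and -0.31 in day 1 cells) and with no filter (adjusted p = 0.0641 and 0.120), and that of day 1 also without the first. The Eif2ak4 difference in myotubes was 0.81 and did not pass without the first replicate (adjusted p = 0.0619). Without the third, that of Eif2ak3 passed (-1.42, adjusted p = 0.0130). Antimycin responses in myotubes differed for 3 of 6 members (47.9%), with Eif2ak2 at 2.04 ± 0.25, Eif2ak1 at 0.62 ± 0.16 and Gcn1l1 at -0.47 ± 0.11. Without the third replicate Eif2ak1 was at 0.32 (adjusted p = 0.114), and with well position at 0.40 (adjusted p = 0.0917). Without the second replicate Gcn1l1 was at -0.41 (adjusted p = 0.0573). Oligomycin responses differed for Eif2ak2, by 0.95 ± 0.23 in myotubes (1 of 6, and 29.0% of genes) and 1.01 ± 0.23 in day 1 cells (1 of 6, and 24.9%), both lost without the first replicate or the third (lowest values 0.82 and 0.83).

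**Figure D3:**
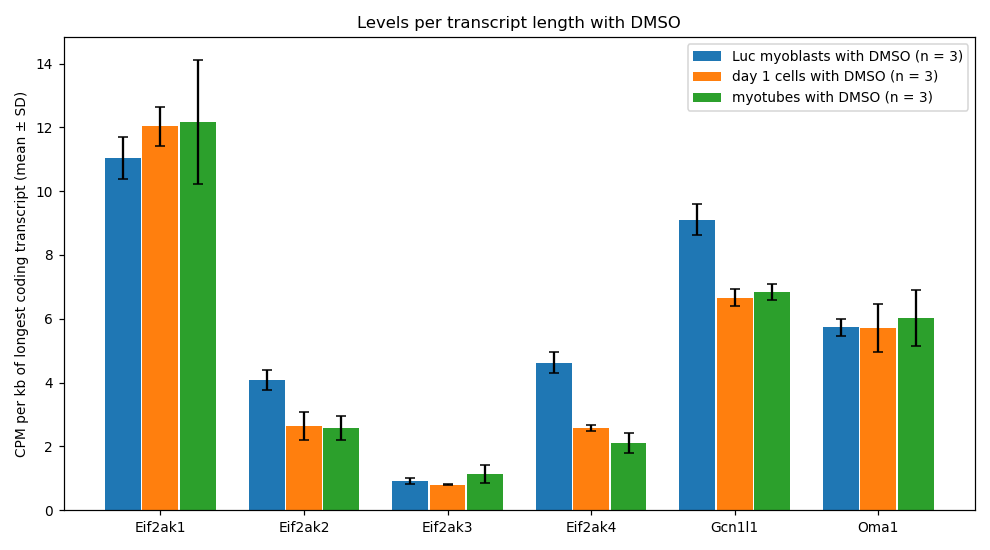
Mean CPM per kb of longest coding transcript (vertical axis, bars starting at 0, ± SD, n = 3) for each member in Luc myoblasts, day 1 cells and myotubes with DMSO. Eif2ak1 stands at 11.04, 12.04 and 12.2, and Eif2ak4 at 4.63, 2.57 and 2.10.

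The target genes of the pathway rose in Luc myoblasts with each inhibitor. Of all genes tested in Luc myoblasts, 30.9% were called higher and 30.8% lower with piericidin, 32.1% and 31.1% with antimycin and 24.5% and 26.3% with oligomycin, and in myotubes 4.15% and 4.84%, 6.64% and 6.27%, and 16.9% and 16.4%. The counts of list genes below stand beside these shares, and no list was tested as a set. Of 10 ISR target genes, 8 reached the filter of 16 counts with DMSO in Luc cells, and of these 8 rose with piericidin (median log2 change 3.12), 8 with antimycin (3.69) and 8 with oligomycin (2.80). The median over all genes tested was -0.004, -0.0048 and -0.015. With piericidin the largest changes among them were in Trib3 (5.26 ± 0.09, a pseudokinase) and Gdf15 (4.91 ± 0.12, a stress cytokine). The other 2 passed the filter only through inhibited cells, so they had to differ. Fgf21, a secreted metabolic hormone, had 1 to 2 counts per sample with DMSO and 313 to 367 with piericidin, and Atf3, a stress transcription factor, 7 to 15 and 1365 to 1509. In NDI1 cells with piericidin 0 of 10 passed in edgeR (4 at an unadjusted p under 0.05), where 0.00835% of all genes were called, so that count does not set the list apart. In myotubes 5 of 10 rose with piericidin (median 0.40), 9 with antimycin (0.90) and 10 with oligomycin (2.47).

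Of 13 subunits of eIF2, of its exchange factor eIF2B and of the phosphatases that reverse the kinases, 10 were higher and 1 lower on piericidin in Luc myoblasts (median log2 change 0.52, where 30.9% of all genes were higher and 30.8% lower), 8 and 2 on antimycin (0.28, with 32.1% and 31.1% of all genes) and 6 and 3 on oligomycin (0.14, with 24.5% and 26.3%). The largest change was in Ppp1r15a (GADD34, the inducible phosphatase subunit), at 4.86 ± 0.10 with piericidin, 4.77 ± 0.10 with antimycin and 3.82 ± 0.10 with oligomycin. Eif2b3 (1.70 ± 0.06), Eif2s2 (1.36 ± 0.06) and Ppp1r15b, the constitutive phosphatase subunit (1.09 ± 0.07), followed with piericidin. In myotubes 0 of 13 passed with piericidin in edgeR (2 at an unadjusted p under 0.05), 1 rose and 1 fell with antimycin and 6 rose with oligomycin, where Ppp1r15a reached 3.23 ± 0.07. With DMSO, 8 of 13 were lower and 3 higher in myotubes than in Luc myoblasts, where 33.7% of all genes were lower and 35.7% higher.

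Among 16 partners and regulators of the kinases, 8 rose and 4 fell with piericidin in Luc myoblasts, 8 and 5 with antimycin and 8 and 6 with oligomycin. The median log2 changes of these genes were 0.07, 0.25 and 0.21, where all genes had 30.9%, 32.1% and 24.5% higher and 30.8%, 31.1% and 26.3% lower. Impact, which competes with GCN2 for GCN1, rose by 1.20 ± 0.07, 1.63 ± 0.07 and 0.46 ± 0.07 on the log2 scale. Abcf3, a relative of the yeast GCN1 partner GCN20, gave 0.49 ± 0.08, 0.37 ± 0.08 and 0.01 ± 0.08, the last not passing. Prkra (PACT), a protein activator of PKR, changed by -1.93 ± 0.09, -1.48 ± 0.09 and -0.53 ± 0.08, lower in each comparison as Eif2ak2 was. In myotubes Prkra was at 0.14, 0.02 and 0.03 and Impact at -0.16, 0.02 and -0.13, none of which passed in edgeR.

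Hspa5 (BiP), the ER chaperone that holds PERK inactive, rose by 2.06 ± 0.04, 2.07 ± 0.04 and 1.09 ± 0.04 in Luc myoblasts with piericidin, antimycin and oligomycin. Dnajc3, a co-chaperone known as an inhibitor of PKR and PERK, was at 0.05 ± 0.07 (not passing), -0.48 ± 0.07 and -0.57 ± 0.07. Of 10 ER stress genes, 7 rose and 2 fell with piericidin, 6 and 2 with antimycin and 6 and 4 with oligomycin. The median log2 changes of these genes were 1.60, 1.41 and 0.49, where all genes had 30.9%, 32.1% and 24.5% higher and 30.8%, 31.1% and 26.3% lower. The list was led on piericidin by Dnajb9 (2.80), Xbp1 (2.55) and Herpud1 (2.48). In myotubes 0 rose and 2 fell with piericidin, 1 and 3 with antimycin and 3 and 4 with oligomycin, and Hspa5 was at -0.18, -0.24 and 0.01, the last not passing. The HRI chaperones Hsp90aa1 and Hsp90ab1 were at 0.10 ± 0.04 and -0.21 ± 0.03 on piericidin in Luc myoblasts, -0.08 ± 0.04 (not passing) and -0.15 ± 0.03 on antimycin and 0.33 ± 0.04 and -0.11 ± 0.03 on oligomycin.

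Eif2ak2 is also known as an interferon-stimulated gene. Of 15 other such genes, 11 passed the filter of 16 counts in the myoblasts, 5 of them with DMSO in Luc cells and 6 only through other conditions. Genes admitted only where they are high had to differ from DMSO, so counts, medians and fold changes over the list are not given. Among those that passed with DMSO, Stat2, a transcription factor of interferon signalling, was lower on the log2 scale with each inhibitor, at -1.35 ± 0.20 for piericidin, -0.47 ± 0.19 for antimycin and -1.08 ± 0.19 for oligomycin. In the same order, Ddx58 (RIG-I, an RNA sensor) was at -1.09 ± 0.21, -0.80 ± 0.21 and -1.28 ± 0.21 and Bst2 (tetherin) at -0.92 ± 0.32, -0.29 ± 0.31 and -0.42 ± 0.31, the last 2 not passing. Irf9, a partner of Stat2, passed with none of the 3 inhibitors. The antiviral effectors Rsad2 and Ifit3 reached the filter only with antimycin, in Luc and mitoLbNOX cells. Rsad2 had 1 to 3 counts per Luc sample with DMSO and 45 to 67 with antimycin, and Ifit3 3 to 5 and 49 to 53. Ifit1 and Isg15 also missed the filter with DMSO in Luc cells. Ifit1 had 15 to 32 counts there, 42 to 66 with piericidin, 242 to 266 with antimycin and 83 to 100 with oligomycin. In the same order, Isg15 had 5 to 10, 16 to 18, 26 to 28 and 11 to 27. Listed genes thus went both ways with each inhibitor. In myotubes 7 of 15 passed the filter, 5 of them with DMSO, and of these Stat2 (0.41 ± 0.11) and Ddx58 (0.58 ± 0.18) rose with antimycin.

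Of 10 substrates and inner-membrane partners of OMA1, 5 rose and 1 fell with piericidin in Luc myoblasts, 6 and 1 with antimycin and 8 and 1 with oligomycin. The median log2 changes of these genes were 0.22, 0.35 and 0.34, where all genes had 30.9%, 32.1% and 24.5% higher and 30.8%, 31.1% and 26.3% lower. Opa1, the fusion protein cut by OMA1, was at -0.30 ± 0.08, -0.05 ± 0.08 (not passing) and 0.21 ± 0.08, and Dele1 at 0.02 ± 0.11 (not passing), 0.52 ± 0.11 and 0.35 ± 0.11. With antimycin the phosphatase Pgam5 rose by 0.96 ± 0.07 and the protease Parl by 0.61 ± 0.06. The protease Afg3l2 was at 1.17 ± 0.38, with a wide spread between DMSO samples (14.8 to 60.5 CPM from 167 to 889 counts, against 84.9 to 91.9 CPM from 741 to 939 counts), and the counts overlapped where the CPM did not. In mitoLbNOX myoblasts with antimycin, where Oma1 was highest, Opa1 was at 0.30 ± 0.08 and Dele1 at 0.47 ± 0.10. In myotubes 0 of 10 passed with piericidin in edgeR (2 at an unadjusted p under 0.05), 1 fell with antimycin and 5 rose with oligomycin, Opa1 among them at 0.30 ± 0.08.

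**Figure D4:**
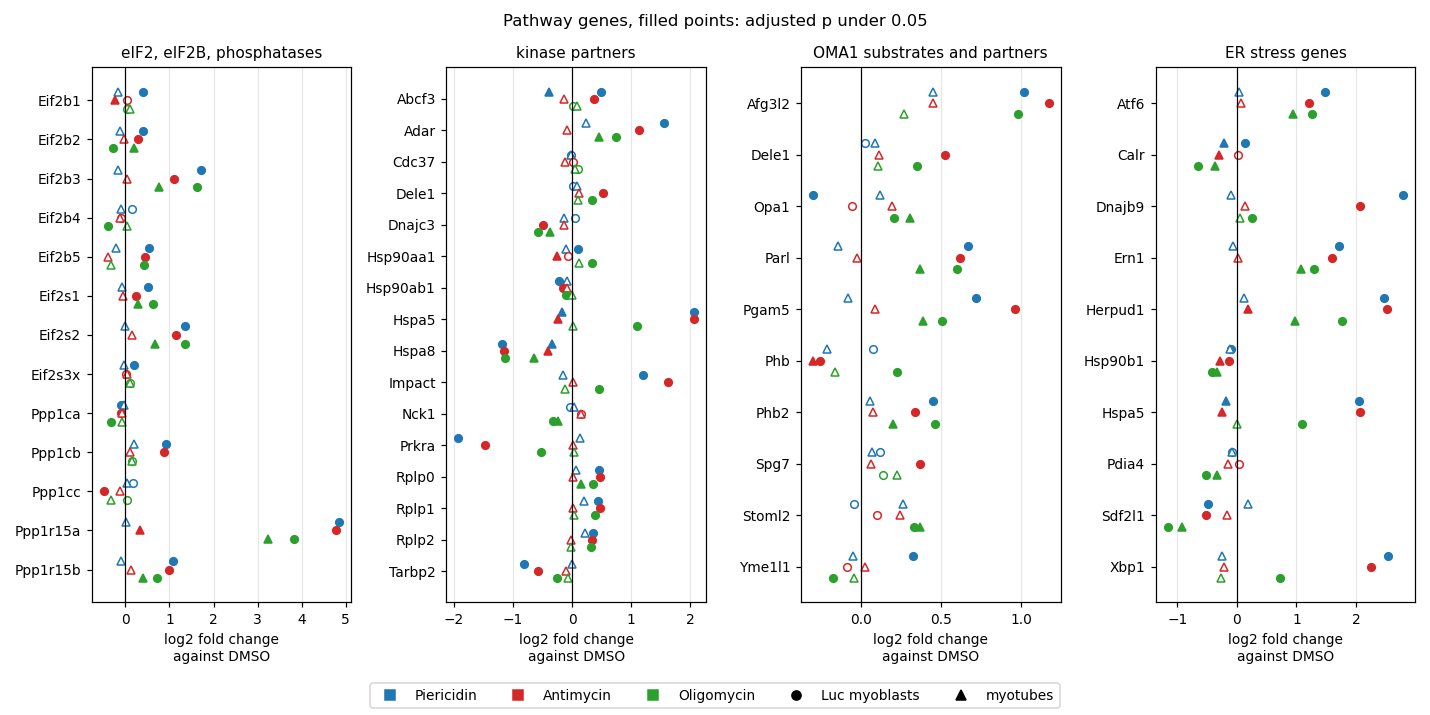
log2 fold change against DMSO (horizontal axis) of the genes in 4 lists (1 row for each gene) in Luc myoblasts (circles) and untransduced myotubes (triangles) by inhibitor (colour), filled where the adjusted p was under 0.05. With piericidin, Ppp1r15a is at 4.86, Hspa5 at 2.06 and Prkra at -1.93 in Luc myoblasts, against 0.01, -0.18 and 0.14 in myotubes.

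Genes with the pattern most like each member were found by Pearson correlation over the 35 condition means of log2 CPM, after subtracting the mean of each of the 5 experiments. These values describe conditions that share libraries and controls. For Eif2ak2 they were Ncapd3 (0.956), Cbx6 (0.955) and Rin2 (0.954), and for Eif2ak1 Ap2s1 (0.923), Vgll4 (0.907) and Psmd2 (0.906). For Gcn1l1 they were Dync1h1 (0.905), Ttc17 (0.898) and Mrps30 (0.896), and for Eif2ak4 Prps2 (0.872), Slc25a17 (0.855) and Pros1 (0.845). Likeness was lower for the other members, with Sec23b (0.756), Zmpste24 (0.736) and Sec61a1 (0.725) for Eif2ak3 and Mapk11 (0.705), Rabggta (0.676) and Anxa4 (0.658) for Oma1. Each set holds the 3 highest of 9684 or 9685 genes with a mean of at least 50 counts, whereas Eif2ak3 itself averaged 39.7. The same measure was 0.848 between Eif2ak1 and Eif2ak2, 0.784 between Eif2ak1 and Eif2ak4 and -0.822 between Eif2ak2 and Gcn1l1. Without subtracting the mean of each experiment these were 0.539, -0.222 and -0.192, so the likeness of Eif2ak1 and Eif2ak4 changed sign.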

How the data were processed

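RNA from C2C12 cells was sequenced after polyA selection with an unstranded Smart-seq2 protocol. The authors quantified reads with kallisto 0.44 (bcl2fastq 2.20.0.422 in the processing notes) against the Ensembl 93 mouse transcriptome, summed them to genes over 2 flow cells and deposited estimated counts in 1 table of all 96 samples. Totals ran from 6458295 to 15366745 per sample, and no replicates held identical values. The deposited values were already whole numbers. Here, 4 transgene rows were left out of tests and library sizes, and a gene was tested where all replicates of 1 or more conditions reached 16 counts, using edgeR 4.0.16 (quasi-likelihood F test, TMM, 6 fits, Benjamini-Hochberg adjustment within each comparison) in R 4.3.3. The SE is the size of the log2 change over the root of F. The test was checked on simulated data.

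Alternatives were DESeq2 1.42.0 (size factors, Wald test), no filter, replicate block, well position, only the groups compared, and each replicate left out. Named list genes were the 4 with the largest called change per list, plus direct partners of a member whatever they showed. The interferon-stimulated genes named did not follow this rule. The members, lists and tests were chosen with earlier results of these data known. Positions and lengths came from GENCODE M21. Promoter sequences came from RefSeq, with all 6 members matched.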

Additional observations from a re-analysis of the deposited data

Results flagged for a closer look

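The differences below were flagged because the response to an inhibitor differed between cells, or within myotubes with and without another treatment, by edgeR's test of the difference itself. Each value is a log2 fold change in one of these settings minus that in the other. No condition had more than 3 samples, too few for a test of single outlying samples. Luc myoblasts with DMSO and with each inhibitor enter every comparison with Luc cells, which are therefore not independent. Every flagged difference from Luc myoblasts was above 0 for Eif2ak1, Eif2ak2, Eif2ak4 and Oma1 and below 0 for Eif2ak3 and Gcn1l1.

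The piericidin response in LbNOX myoblasts differed from that in Luc myoblasts by 1.5 (adjusted p = 4.78e-05) for Eif2ak2, 0.72 (adjusted p = 0.000718) for Eif2ak1, 0.65 (adjusted p = 0.0128) for Oma1, 0.61 (adjusted p = 0.0181) for Eif2ak4 and -0.4 (adjusted p = 0.000511) for Gcn1l1. In mitoLbNOX myoblasts the difference was 1.65 (adjusted p = 1.42e-05) for Eif2ak2, -1.64 (adjusted p = 0.00389) for Eif2ak3, 0.86 (adjusted p = 0.00120) for Eif2ak4, 0.57 (adjusted p = 0.00633) for Eif2ak1 and -0.5 (adjusted p = 3.10e-05) for Gcn1l1. In NDI1 myoblasts it came to 1.74 (adjusted p = 2.61e-05) for Eif2ak2, 0.67 (adjusted p = 0.00410) for Eif2ak1, 0.67 (adjusted p = 0.0183) for Eif2ak4 and -0.5 (adjusted p = 0.000124) for Gcn1l1. For antimycin, LbNOX and Luc responses differed by 1.48 (adjusted p = 5.82e-05) for Eif2ak2, 0.7 (adjusted p = 0.000770) for Eif2ak1 and -0.36 (adjusted p = 0.00126) for Gcn1l1. Antimycin in mitoLbNOX cells gave differences of 0.96 (adjusted p = 0.0115) for Eif2ak2, 0.63 (adjusted p = 0.0214) for Oma1 and -0.31 (adjusted p = 0.00703) for Gcn1l1. Leaving out 1 replicate ended several of these calls. With piericidin in LbNOX cells, Oma1 was lost without the first or the second (and with no filter on low counts), Gcn1l1 without the second and Eif2ak4 without the third. Without the first, piericidin calls were lost for Eif2ak1 and Eif2ak3 in mitoLbNOX cells and for Eif2ak1, Eif2ak4 and Gcn1l1 in NDI1 cells, and the antimycin call of Gcn1l1 in LbNOX cells. In mitoLbNOX cells all 3 antimycin calls were lost without the first (adjusted p = 0.0801 for Eif2ak2, 0.273 for Oma1 and 0.0780 for Gcn1l1), and those of Oma1 and Gcn1l1 also without the second or with no filter.

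In myotubes the piericidin response differed from that in Luc myoblasts by 1.95 (adjusted p = 1.48e-07) for Eif2ak2, 0.97 (adjusted p = 0.00101) for Eif2ak4, 0.87 (adjusted p = 5.78e-05) for Eif2ak1 and -0.3 (adjusted p = 0.0290) for Gcn1l1. Day 1 cells differed in the same comparison by 1.94 (adjusted p = 1.33e-07) for Eif2ak2, 1.18 (adjusted p = 7.57e-05) for Eif2ak4, 0.82 (adjusted p = 0.000118) for Eif2ak1 and -0.29 (adjusted p = 0.0385) for Gcn1l1. The antimycin response in myotubes was apart by 2.04 (adjusted p = 7.72e-08) for Eif2ak2, 0.62 (adjusted p = 0.00223) for Eif2ak1 and -0.47 (adjusted p = 0.00110) for Gcn1l1. Oligomycin gave a difference of 0.95 (adjusted p = 0.00262) for Eif2ak2 in myotubes and of 1.01 (adjusted p = 0.00175) for the same gene in day 1 cells. Of these, Gcn1l1 with piericidin was lost without the second replicate in both cells, and on day 1 also without the first, and with no filter in both. In myotubes Eif2ak4 with piericidin was lost without the first, Gcn1l1 with antimycin without the second and Eif2ak1 with antimycin without the third or with well position. Both oligomycin differences of Eif2ak2 were lost without the first or the third. Serum, doxycycline and transgene differ between these cells together with state and cannot be told apart.

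Within myotubes, the oligomycin response of Gcn1l1 differed by -0.38 (adjusted p = 0.0282) when piericidin was present, and that of Eif2ak3 by 1.41 (adjusted p = 0.0349) when BAM15 was present. Both calls were lost without the first replicate (adjusted p = 0.338 and 0.160), without the second (0.159 and 0.229) and with well position (0.0759 and 0.201), and that of Gcn1l1 also with no filter on low counts. The second of these rests on 14 to 36 counts of Eif2ak3 per sample with BAM15 alone and 30 to 46 with BAM15 and oligomycin.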

How the results depend on the processing

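Of the 79 member calls over all comparisons, 0 reversed under any of the alternatives run. 1 of 79 were lost with DESeq2 size factors, 3 of 79 with DESeq2's Wald test, 13 of 79 with no filter on low counts, 7 of 78 with well position as a covariate and 2 of 79 when only the groups compared were fitted. With replicate 1, 2 or 3 of every group left out 32 of 78, 22 of 78 and 16 of 78 were lost and 0, 1 and 9 gained, with fewer samples by construction. The 52 calls in 10 hr myoblasts became 31 to 49 with 1 replicate left out. The 5 in untransduced myotubes became 3 without the filter, 1 with well position and 0 to 5 with 1 replicate left out. The 1 in transduced myotubes became 0 without the filter, 0 with DESeq2 and 0 to 0 with 1 replicate left out, and the 1 in day 1 cells 0 to 0. The cause was not tested for the filter and well position. The 19 between cell states became 15 to 17 with 1 replicate left out.

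With the replicate number as a block, calls numbered 51 in 10 hr myoblasts, 5 in myotubes, 1 in transduced myotubes, 1 in day 1 cells, 19 between states and 0 at 48 hr, where the main count was 1 (Gcn1l1, adjusted p = 0.0503 with the block). Deviations of same-numbered samples correlated by -0.04 to 0.05 on average, and at most 33.6% of such pairs exceeded 0.1. The mean was 0.034 in 10 hr myoblasts, against -0.017 for other-numbered samples, and 0.054 against -0.027 in day 1 cells. With so few samples per condition, these averages cannot show whether the numbers pair the samples. Leaving out a replicate of NDI1 or GFP cells left 1 sample, assumed to vary like the other groups. It could not be fitted at 48 hr, where no residual degrees of freedom remain, nor could well position in day 1 cells. Ratios of highest to lowest mean moved to 2.56 for Eif2ak1, 5.92 for Eif2ak2 and 1.77 for Gcn1l1 without TMM, and to 4.60 for Eif2ak3 without the second replicate. Another scaling moved the median of all genes by at most 0.0490 on the log2 scale. Depth limits Eif2ak3 most, at 13 to 81 counts per sample.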
